A study of Homo sapiens with 6 samples.

Results

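Synaptotagmins are membrane-anchored proteins that carry a pair of C2 domains and act in the docking and fusion of vesicles. *SYT1*, the best known, is the calcium sensor of fast transmitter release at synapses. *SYT11* and its close relative *SYT4* differ from it in that their C2 domains bind calcium poorly or not at all, and SYT11 is known as a substrate of the ubiquitin ligase parkin and as a brake on vesicle uptake and fusion. The extended synaptotagmins *ESYT1* and *ESYT2* are lipid-transfer proteins that hold the endoplasmic reticulum close to the plasma membrane. Described here are 9 genes of this family, of 55767 gene symbols in the count tables, and they are *SYT1*, *SYT4*, *SYT5*, *SYT7*, *SYT11*, *SYT13*, *SYT17*, *ESYT1* and *ESYT2*. The list was chosen by name with the read counts of this same comparison known, in which *SYT11* stood out. The difference of *SYT11* between sh-control and sh-*RREB1* was thus the measured value the members were selected on, so the differences of the 9 genes between groups are a description, given with no p. Where a member is said to be called, this states only on which side of the thresholds for all genes it fell.

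The study asked what changes in the transcriptome when RREB1, a zinc finger transcription factor, is reduced. HEK293T, a human embryonic kidney line that carries the SV40 large T antigen, was grown in DMEM with serum and infected with lentivirus carrying a short hairpin RNA (shRNA), and stable lines were selected. The groups were 3 libraries from cells with a control shRNA (sh-control) and 3 from cells with an shRNA against *RREB1* (sh-*RREB1*), and both were made from total RNA with a strand-specific kit. The labels do not say that the libraries of a group came from separate cultures, so the errors and p-values measure only the spread between these libraries.

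Reads on genes numbered 23362197 to 33044061 in sh-control and 12257054 to 26145878 in sh-*RREB1*. The shallowest library, sh-*RREB1* replicate 3, also had 52.1% of its aligned reads at more than one position, against 3.66% to 7.63% in the others. *RREB1* itself, the gene targeted, was at 27.1, 25.2 and 26.6 CPM (reads per 1000000 reads on genes, scaled by the TMM method) in sh-control replicates 1, 2 and 3 while the sh-*RREB1* libraries had 23.7, 24.6 and 23.2 CPM. The log2 fold change of *RREB1* was −0.14 (standard error, SE, 0.128, adjusted p = 0.486, edgeR quasi-likelihood test with Benjamini-Hochberg adjustment), which did not pass the test, and it was −0.23 with the correction for GC content and length described below (adjusted p = 0.214). From separate assays, the study reports less *RREB1* mRNA and protein in HEK293 cells with shRNA against *RREB1*. Why these counts show little of that reduction was not tested. A direction below is therefore that of the libraries labelled sh-*RREB1*. All 7 markers of HEK293 cells had at least 10 reads over the libraries, with PAX2, a kidney developmental factor, at 3 to 10 reads a library, and their summed level was 529 to 591 CPM in sh-control and 811 to 926 CPM in sh-*RREB1*. Of 8 neuron markers, *RBFOX3*, *ELAVL3* and *ELAVL4* had fewer than 10 reads in all, and the 8 summed to 11.2 to 12.0 CPM in sh-control and 13.6 to 15.7 CPM in sh-*RREB1*. Among them the microtubule genes *MAP2* (log2 fold change 1.11) and *STMN2* (−4.40) were called in opposite directions, where 3.41% of all genes were called. *DCX*, also a microtubule gene, had 0 reads in each sh-control library and 6, 7 and 3 in the sh-*RREB1* libraries. Its log2 fold change of 5.64 was not called, and with the correction for GC content and length it was 5.81 and called. Of the 5 neuron markers tested, 4 were above 0 and 1 below. The 6 neuroendocrine markers summed to 1.93 to 2.06 CPM and 2.86 to 3.10 CPM. The 15 markers of other cell types summed to 12.1 to 13.5 CPM and 9.36 to 16.2 CPM, with *CD3E* and *UMOD* at 0 reads and the fibroblast gene *COL1A2* at 103 reads in sh-*RREB1* replicate 2 and 0 to 1 in the other libraries. The part of these markers in the results below was not tested. In bulk RNA, fewer cells that express a gene and less RNA of it in each cell cannot be told apart.

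The start regions of the 4 most abundant members are printed first, because *SYT11* was the member that differed and the other 3 are the expressed genes it is read against. Each is 300 bases of GRCh38.p14 from RefSeq, 250 before and 50 after the start site, on the strand of the gene, 5′ to 3′, with CpG dinucleotides in capitals. *SYT11* lies at chr1:155859317-155859616 on the plus strand, *SYT1* at chr12:78864524-78864823 on the plus strand, *ESYT1* at chr12:56128017-56128316 on the plus strand and *ESYT2* at chr7:158829460-158829759 on the minus strand.
SYT11: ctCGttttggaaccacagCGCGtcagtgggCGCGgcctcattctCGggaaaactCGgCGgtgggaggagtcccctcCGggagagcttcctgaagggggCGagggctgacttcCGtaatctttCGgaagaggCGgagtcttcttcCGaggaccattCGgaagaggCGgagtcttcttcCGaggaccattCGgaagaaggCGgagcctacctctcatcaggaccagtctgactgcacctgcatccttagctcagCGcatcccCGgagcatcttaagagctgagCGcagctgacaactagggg
SYT1: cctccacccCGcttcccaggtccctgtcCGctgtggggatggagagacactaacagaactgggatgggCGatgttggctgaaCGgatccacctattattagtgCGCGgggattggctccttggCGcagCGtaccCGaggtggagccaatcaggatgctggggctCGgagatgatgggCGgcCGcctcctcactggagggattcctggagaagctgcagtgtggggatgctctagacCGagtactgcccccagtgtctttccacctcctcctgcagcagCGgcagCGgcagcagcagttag
ESYT1: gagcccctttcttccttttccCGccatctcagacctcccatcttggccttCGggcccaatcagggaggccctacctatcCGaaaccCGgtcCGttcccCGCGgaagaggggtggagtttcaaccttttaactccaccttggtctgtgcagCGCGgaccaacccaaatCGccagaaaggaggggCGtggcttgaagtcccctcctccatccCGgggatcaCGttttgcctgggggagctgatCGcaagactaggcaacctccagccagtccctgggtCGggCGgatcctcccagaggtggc
ESYT2: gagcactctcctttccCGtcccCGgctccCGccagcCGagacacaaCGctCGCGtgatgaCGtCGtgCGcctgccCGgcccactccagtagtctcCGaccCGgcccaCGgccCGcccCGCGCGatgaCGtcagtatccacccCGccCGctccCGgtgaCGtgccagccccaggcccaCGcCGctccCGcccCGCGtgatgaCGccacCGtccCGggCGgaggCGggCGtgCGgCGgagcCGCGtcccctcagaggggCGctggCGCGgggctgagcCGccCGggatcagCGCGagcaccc

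Of the 9 genes, 6 had a promoter in RefSeq's table. The *SYT11* window held 22 CpG dinucleotides at 60.0% GC, against 15 at 62.0% in *SYT1*, 16 at 61.7% in *ESYT1* and 45 at 76.7% in *ESYT2*. Over 35116 promoters of the same length the median was 14 CpG dinucleotides and 58.7% GC, so *SYT11* was above the median in CpG number and close to it in GC content. Part of the window is repeated in tandem. A word of 33 bases, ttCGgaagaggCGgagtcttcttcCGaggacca, started 130 and again 97 bases before the start site, and 259 of all promoters (0.738%) held a repeat at least as long. The letters CCACCCC, 7 bases of the C-rich motif usually given for RREB1, were searched on both strands, and overlap with another motif was not considered. They occurred once each in the windows of *SYT1*, *ESYT1* and *ESYT2* and not in those of *SYT11*, *SYT4* and *SYT5*. Of all promoters, 16.6% held them. For *SYT11* this says only that these letters are not in its window.

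*SYT11* (ENSG00000132718) spans positions 155859567 to 155885199 of chromosome 1 (GRCh38). It was the single member past the call thresholds, and the members were selected on this difference. Calls required more than a doubling or halving (beyond 1 on the log2 scale) and an adjusted p under 0.01. By that rule 2.71% of the 23304 genes tested were called higher and 3.41% in either direction. *SYT11* was at 11.6, 16.0 and 16.0 CPM in sh-control, from 266, 435 and 514 reads. In sh-*RREB1* it was at 102, 119 and 112 CPM, from 2534, 3110 and 1407 reads. The lowest sh-*RREB1* library thus lay far above the highest sh-control library, and sh-control replicate 1 was the lowest of the 6. The mean rose from 14.5 ± 2.56 to 111 ± 8.41 CPM (SD, n = 3 each), with a log2 fold change of 2.93 (SE 0.16), which is 7.61-fold.

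Reads on the strand opposite to *SYT11* numbered 1 to 8 in each library, and no other annotated gene overlapped its exons. Of the 794 genes called, 38 had a larger increase, and among the 722 of these 794 with a mean of at least 1 CPM, 17 had a larger increase. Leaving out single libraries, the log2 fold change of *SYT11* ran from 2.76, without sh-control replicate 1, to 2.99. A trend of counts on the GC content and length of genes was fitted in each library. With those trends removed as an offset, the log2 fold change of *SYT11* was 3.14, with 3.81% of all genes called in that fit.

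**Figure D1:**
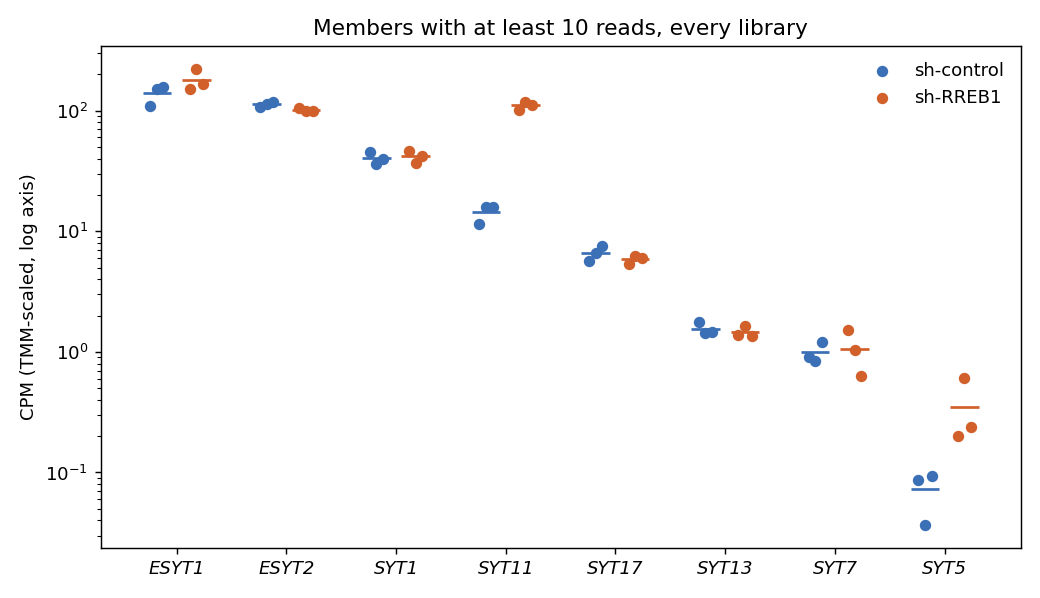
Level of the 8 members with at least 10 reads in CPM (TMM-scaled, log axis) in each of the 6 libraries, as points, with the group mean as a line. For *SYT11* the 3 sh-*RREB1* libraries (102 to 119 CPM) sat above the sh-control libraries (11.6 to 16.0 CPM), while points of *SYT1*, *SYT7*, *SYT13*, *SYT17* and *ESYT1* overlapped between groups.

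To compare members with each other, levels were divided by the length of their merged exons (RPKM, reads per 1000 bases per 1000000 reads on genes). In sh-control the order was *ESYT1* (26.4 ± 4.82), *ESYT2* (15.9 ± 0.804), *SYT1* (4.26 ± 0.511), *SYT11* (2.80 ± 0.495), *SYT17* (0.879 ± 0.122), *SYT13* (0.287 ± 0.0355), *SYT7* (0.131 ± 0.026), *SYT5* (0.0139 ± 0.00597) and *SYT4* (0.00285 ± 0.00493 RPKM, SD, n = 3). Apart from *SYT5* and *SYT4*, neighbours in this order did not overlap between libraries. In sh-*RREB1*, *SYT11* at 21.4 ± 1.62 RPKM stood second, below *ESYT1* (34.1 ± 7.10) and above *ESYT2* (14.3 ± 0.429) and *SYT1* (4.41 ± 0.51 RPKM, SD, n = 3). The rest kept their order, with *SYT7* and *SYT5* overlapping. Among 14585 protein-coding genes tested, the mean RPKM of *SYT11* moved from percentile 46.7 to percentile 86.5, while *ESYT1* was at 88.6 and 92.6, *ESYT2* at 80.2 and 79.0 and *SYT1* at 53.9 and 52.2.

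The make-up of the family shifted with it. *SYT11* gave 5.06%, 5.88% and 5.60% of the members' summed RPKM in sh-control replicates 1, 2 and 3. In sh-*RREB1* it gave 28.4%, 27.2% and 29.6%, which restates the difference that the members were selected on. The summed RPKM was 44.2 to 55.2 in sh-control and 69.3 to 84.4 in sh-*RREB1*. Without *SYT11* it was 41.9 to 52.1 and 49.6 to 61.4 RPKM, ranges that overlap. A ratio within a library does not depend on its scaling. For every 100 reads of *ESYT2*, *SYT11* had 10.8, 14.1 and 13.6 in the sh-control libraries and 97.3, 120 and 111 in those of sh-*RREB1*. Per 100 reads of *ESYT1* it had 10.5, 10.7 and 10.2 in sh-control and 67.4, 53.3 and 66.9 in sh-*RREB1*. Per 100 reads of *SYT1* it had 25.4, 44.6 and 40.4 in sh-control and 220, 323 and 265 in sh-*RREB1*.

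**Figure D2:**
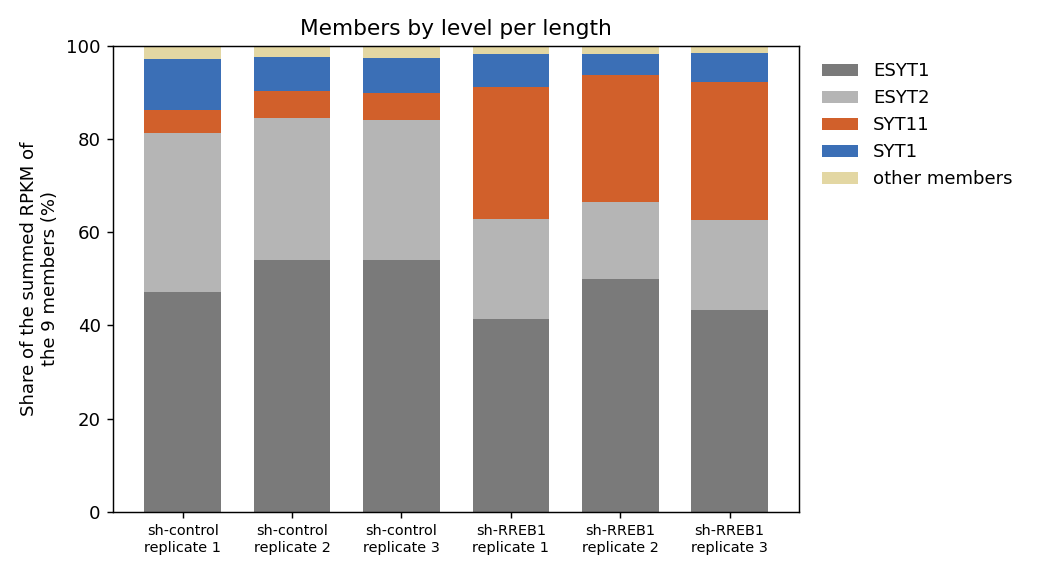
Share of the summed RPKM of the 9 members (percent, stacked bars) taken by *ESYT1*, *ESYT2*, *SYT11*, *SYT1* and the other 5 members in each library. The *SYT11* part is 5.06% to 5.88% in the sh-control bars and 27.2% to 29.6% in the sh-*RREB1* bars.

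The 7 other members tested were not called, and their median log2 fold change was 0.05, against 0.01 over all genes tested. Of the 8 tested, *SYT11*, *SYT5* and *ESYT2* had groups that did not overlap in CPM, as did 41.1% of all genes.

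The synaptic sensor *SYT1* was at 45.5, 35.9 and 39.6 CPM over the sh-control libraries, against 46.4, 36.8 and 42.0 CPM in sh-*RREB1*, with a log2 fold change of 0.05 (SE 0.146). The groups overlapped throughout. With the GC and length offset it was 0.40, and the gene has the lowest GC content of the 8 tested (40.4%). *ESYT1*, which tethers the endoplasmic reticulum to the plasma membrane when calcium rises, was at 110, 150 and 158 CPM over the sh-control libraries, against 152, 223 and 167 CPM in sh-*RREB1*. Its log2 fold change was 0.37 (SE 0.181), and it was 0.19 without sh-control replicate 1, the lowest library, and 0.12 with the offset. The exons of *ESYT1* share 123 bases with *ZC3H10* on the same strand, where reads cannot be assigned to a single gene. *ESYT2*, also a tether between these membranes, was at 107, 114 and 118 CPM over the sh-control libraries, against 105, 99.2 and 100 CPM in sh-*RREB1*. Each sh-*RREB1* library was lower than each sh-control library, yet the log2 fold change was only −0.15 (SE 0.0999), and −0.02 with the offset.

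*SYT17*, a member without a membrane-spanning segment, was at 5.32 to 7.54 CPM over the 6 libraries, with a log2 fold change of −0.19 (SE 0.181). *SYT13*, which lacks the calcium-binding residues, was at 1.35 to 1.78 CPM with a log2 fold change of −0.09 (SE 0.228). Both overlapped between groups, and with the offset they were at −0.11 and 0.07. *SYT7*, the slow, high-affinity calcium sensor, was counted 21, 23 and 39 times in the sh-control libraries and 38, 27 and 8 times in the sh-*RREB1* libraries. Its log2 fold change was 0.15 (SE 0.337) and turned to −0.61 with the offset, in the member of highest GC content (60.1%), so no direction can be given for it.

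*SYT5*, found on dense-core vesicles, was counted 2, 1 and 3 times in the sh-control libraries and 5, 16 and 3 times in the sh-*RREB1* libraries. Summed over libraries and scaled to the reads on genes by the TMM method, 6 against 24 reads gave a ratio of 5.17 (95% interval 2.06 to 15.5, counting error only). The interval leaves out the spread between libraries, so it is no test of a difference. Most reads of *SYT5* came from sh-*RREB1* replicate 2, and the log2 fold change of 2.25 (SE 0.674) was 1.5 without that library and 1.64 with the offset. On the opposite strand were 4, 1 and 5 reads (sh-control) and 0, 5 and 0 reads (sh-*RREB1*), and with both strands counted the log2 fold change was 1.09. *SYT4*, the closest relative of *SYT11*, had 1 read in sh-control replicate 2 and 0 in the other 5 libraries, where a count of 0 allows up to 0.0935 to 0.238 CPM (3 reads). It was not tested, and whether it differed was not detectable at this depth.

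The other genes of the wider family were 19 synaptotagmins, synaptotagmin-like proteins and DOC2 or rabphilin relatives, of which 14 had enough reads to test. Of these, 2 were called higher and 1 lower, against 2.71% and 0.699% of all genes. The median log2 fold change of the 14 was 0.46, and 0.27 with the offset. *SYTL5* and *SYTL2*, both RAB27 effectors that bring vesicles to the membrane, moved in opposite directions. *SYTL5* was at 34, 33.5 and 34.5 CPM over the sh-control libraries, against 67.1, 81.5 and 81.6 CPM in sh-*RREB1*, a log2 fold change of 1.17 (SE 0.124, edgeR adjusted p = 0.00191). *SYTL2* was at 17.6, 16.7 and 15.1 CPM over the sh-control libraries, against 5.04, 5.96 and 5.31 CPM in sh-*RREB1*, a log2 fold change of −1.60 (SE 0.164, edgeR adjusted p = 0.00189). Neither pair of groups overlapped, and both calls held with the offset (1.51 and −1.28). For every 100 reads of *SYTL2*, *SYTL5* had 193, 200 and 229 in the sh-control libraries and 1331, 1367 and 1536 in those of sh-*RREB1*.

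*SYTL1*, a further RAB27 effector, was counted 8, 20 and 24 times in sh-control libraries and 41, 69 and 27 times in sh-*RREB1* libraries, a log2 fold change of 1.78 (SE 0.331, edgeR adjusted p = 0.00944). With the offset it was 0.89 and not called. The genes of highest RPKM in this list were *SYTL5*, *SYTL4* and *SYT16*. *SYTL4*, known as granuphilin, was at −0.60 on the log2 fold scale (edgeR adjusted p = 0.015), and *SYT16* one of 0.48 (edgeR adjusted p = 0.0854), and neither was called. With the offset they were at −0.39 and 0.80. *SYT3* (2.04, edgeR adjusted p = 0.0122), named after its values were seen, was past the fold but not the p, and it was 1.32 with the offset. With the offset *SYT14* was called (1.04, against 0.86 without it). Without sh-control replicate 2 or without sh-*RREB1* replicate 3 none of the 14 was called, and 9 and 8 genes were then called in the whole table. Without sh-*RREB1* replicate 1 the list had 1 call.

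**Figure D3:**
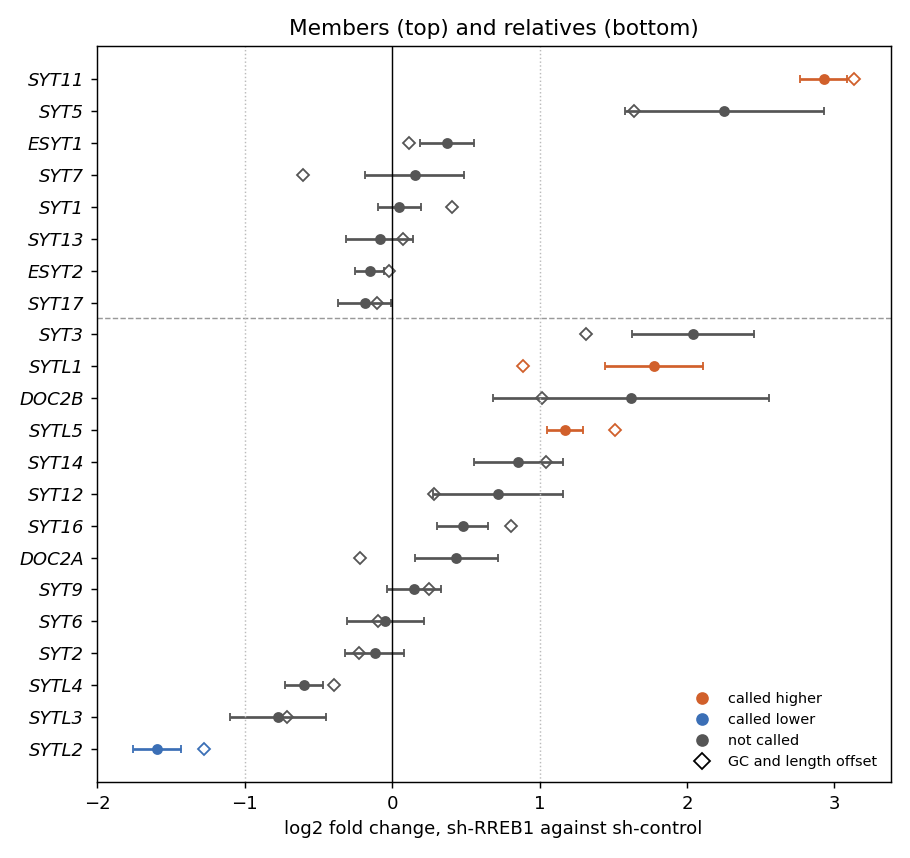
Log2 fold change, sh-*RREB1* against sh-control, of the 8 members tested (above the dashed line) and the 14 relatives tested (below it), as filled points with bars of 1 standard error. Open diamonds are the fit with the GC and length offset, dotted lines mark a log2 fold change of 1 in either direction, and colour marks the call, with *SYT11* at 2.93 and *SYTL2* at −1.60.

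Synaptotagmins act on SNARE proteins, which pull vesicle and target membranes together. Of 59 genes of the SNARE exocytosis machinery, 55 were tested and 1 was called higher. That call was lost with any library but sh-control replicate 1 left out. The list's median log2 fold change was 0.02, close to that of all genes. The genes of highest RPKM were the vesicle SNARE *VAMP3* (0.07), the endosomal syntaxin *STX12* (−0.25) and the exocyst subunit *EXOC2* (−0.13), and none of the 3 was called. With the offset they were at 0.42, 0.15 and 0.15, so the last 2 turned direction. The vesicle protein *SV2A*, a binding partner of synaptotagmin named after its values were seen, was at 34.9, 44 and 46.5 CPM over the sh-control libraries, against 70.2, 94.5 and 80.9 CPM in sh-*RREB1*. Its log2 fold change of 0.97 (SE 0.158, edgeR adjusted p = 0.00619) was just under the fold required, and it was 0.73 with the offset. Also under that fold, and named on the same basis, were *NSF*, the ATPase that takes SNARE complexes apart (−0.58, SE 0.1, edgeR adjusted p = 0.00747), and the vesicle GTPase *RAB3B* (−0.77, SE 0.124, edgeR adjusted p = 0.0059), both lower in each sh-*RREB1* library than in each sh-control library. With the offset *NSF* was at −0.22 (edgeR adjusted p = 0.318), no longer under 0.01, and *RAB3B* at −0.55 (edgeR adjusted p = 0.00241).

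Of the other proteins at contacts between endoplasmic reticulum and plasma membrane, where the extended synaptotagmins work, 28 genes were listed and 26 were tested. Of these, 3 were called higher and 1 lower, against 2.71% and 0.699% of all genes, and the median log2 fold change was 0.47, against 0.01 over all genes. Those called higher were the calcium channel subunit *ORAI2* (1.49, edgeR adjusted p = 0.00717), the lipid-transfer gene *OSBPL5* (1.47, edgeR adjusted p = 0.00541) and the sterol-transfer gene *GRAMD1A* (1.27, edgeR adjusted p = 0.0095). Sh-control replicate 1 was the lowest library for all 3, and with the offset they were at 0.96, 0.43 and 0.53 and none was called. *GRAMD1C*, a paralogue of *GRAMD1A*, was at 28.5, 28.5 and 26.4 CPM over the sh-control libraries, against 11.8, 10.4 and 10.4 CPM in sh-*RREB1*. Its log2 fold change of −1.36 (SE 0.144, edgeR adjusted p = 0.00191) was −1.02 with the offset and still called. With the offset *JPH1*, which joins endoplasmic reticulum and plasma membrane (1.02, against 0.84 without it), and *PITPNM3* (−1.02, against −0.43) were called too. Both were named after their values were seen. The median of the list was 0.13 with the offset. The genes of highest RPKM, *RTN3* (−0.33), *OSBPL8* (−0.38) and *VAPA* (−0.44), were not called, and with the offset they were at 0.03, −0.16 and −0.10. Without sh-control replicate 2, sh-*RREB1* replicate 1 or sh-*RREB1* replicate 3 none of the list was called, without sh-control replicate 3 or sh-*RREB1* replicate 2 there was 1 call, and without sh-control replicate 1 there were 5.

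**Figure D4:**
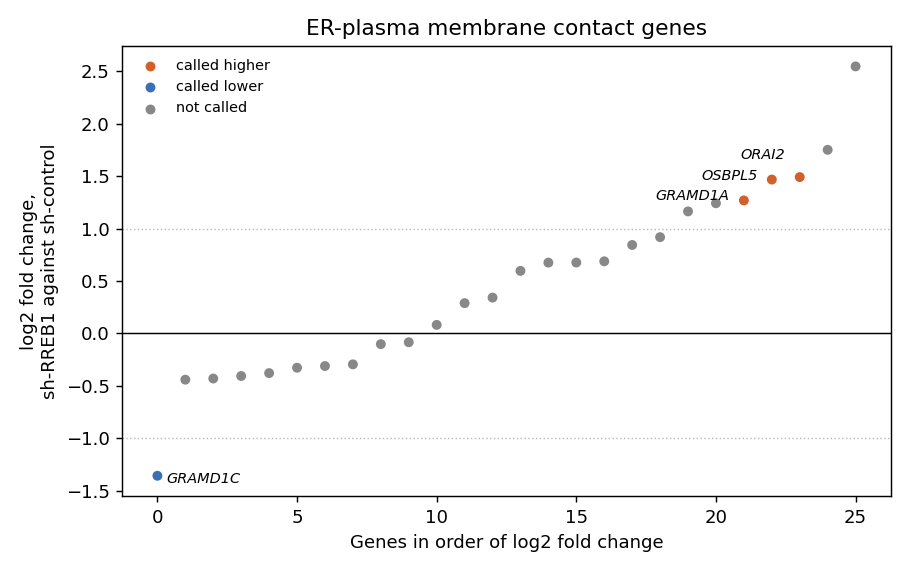
Log2 fold change, sh-*RREB1* against sh-control, of the 26 contact genes tested, in order of its value, with called genes in colour and dotted lines at a log2 fold change of 1 in either direction. *ORAI2*, *OSBPL5* and *GRAMD1A* were called higher (1.27 to 1.49) and *GRAMD1C* lower (−1.36).

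*SYT11* shares its start region with *GON4L*, a gene for a nuclear regulator of transcription. *GON4L* runs the other way, from 155859400 down to 155749659 on the minus strand of chromosome 1, and the start sites are 167 bases apart, so the start of *GON4L* lies inside the *SYT11* window printed above. *GON4L* was at 142, 148 and 146 CPM over the sh-control libraries, against 91.4, 122 and 103 CPM in sh-*RREB1*. All sh-*RREB1* libraries were lower than all sh-control libraries, the opposite direction to *SYT11*. Its log2 fold change was −0.46 (SE 0.124, edgeR adjusted p = 0.0321), which was not called, and it was −0.33 with the offset.

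Within 250 kb of *SYT11* the annotation has 14 other protein-coding genes, of which 13 were tested. None was called by edgeR, 7 had an unadjusted p below 0.05, as did 34.4% of all genes, and DESeq2 called 1, *LMNA*, against 7.07% of all genes. *LMNA*, which encodes nuclear lamins A and C, was at 5.96, 14.0 and 17.6 CPM over the sh-control libraries, against 32.8, 37.0 and 27.4 CPM in sh-*RREB1*, a log2 fold change of 1.37 (SE 0.338, edgeR adjusted p = 0.0244). It was 1.0 without sh-control replicate 1, the lowest library, and called in that fit, and 0.76 with the offset, where it was not called. On the side of *GON4L*, the log2 fold changes were −0.41 for *YY1AP1*, −0.27 for *DAP3* and 0.22 for *MSTO1*. On the other side they were −0.19 for *RIT1*, −0.28 for *KHDC4*, 0.77 for *ARHGEF2*, 0.07 for *SSR2*, 0.40 for *UBQLN4*, 0.66 for *LAMTOR2*, 0.55 for *RAB25* and 0.77 for *MEX3A*. *RXFP4* had no reads. With the offset *RIT1* and *KHDC4* were above 0 (0.22 and 0.02), and the neighbours ran from −0.39 to 0.76. *SYT11*, at 2.93, lay above each of the 13 neighbours tested. The members were selected on this difference, so its place among the neighbours is a description only.

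**Figure D5:**
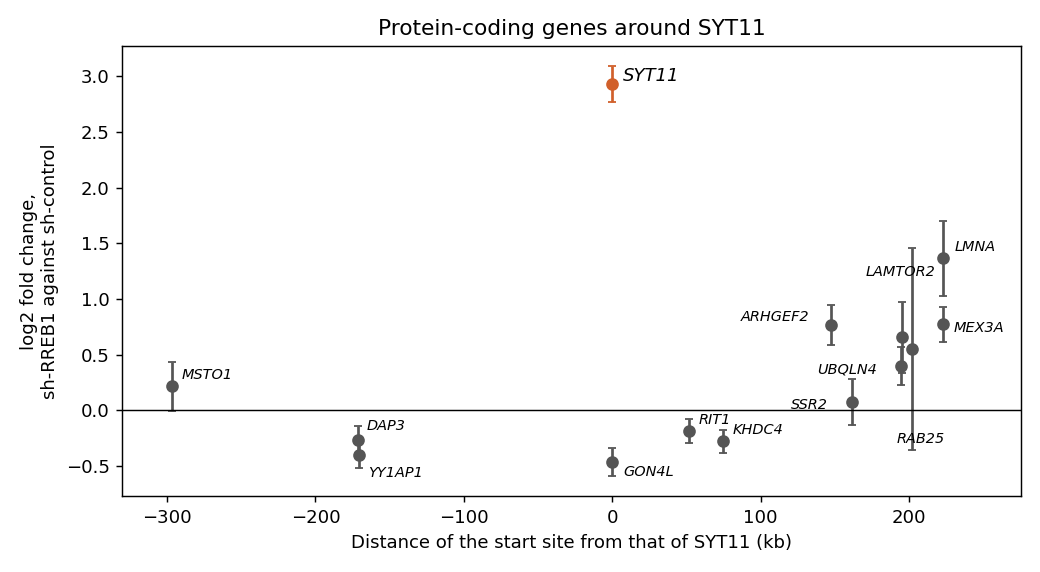
Log2 fold change, sh-*RREB1* against sh-control (points, with bars of 1 standard error), of *SYT11* and the 13 protein-coding genes tested around it, by the distance of their start sites from that of *SYT11* (kb). *SYT11* stands at 2.93 and *GON4L*, 167 bases away, at −0.46.

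The genes whose log2 CPM followed that of *SYT11* most closely over the 6 libraries were *FHL1* (Pearson r = 0.99972), *NEFL* (0.99914), *JUN* (0.99908), *SNRPA1-DT* (0.99888) and *CMTM3* (0.99877). The libraries fall into their groups, and 56 of 14331 genes compared had an r above 0.99, so this is a description with no test. *JUN*, a subunit of the AP-1 transcription factor, was at 24.2, 28.7 and 30.9 CPM over the sh-control libraries, against 124, 150 and 140 CPM in sh-*RREB1*. Like *SYT11*, it was lowest in sh-control replicate 1 and highest in sh-*RREB1* replicate 2. The increase of *JUN* (log2 fold change 2.30) was smaller than that of *SYT11*, and those of the neurofilament gene *NEFL* (0.89) and of *FHL1* (0.97) were below the fold required, though past it with the offset (1.05 and 1.03).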

How the data were processed

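RNA-seq of 6 HEK293T libraries was used. The authors quantified reads with STAR (per the labels, build hg38, with the Gencode annotation named in the study's methods) and deposited unnormalized gene counts of every library, in columns for both strands and each strand, and a merged table of them. The gene-strand column was used here. Rows that name no gene were left out: reads on no annotated gene were 19.2% to 33.1% of the reads of a library.

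Of 58037 identifiers, 45 pseudoautosomal duplicates were dropped and 56948 had a symbol. These gave 55767 symbols, keeping the identifier with the most reads, and 23304 had at least 10 reads summed over libraries. EdgeR 4.0.16 (quasi-likelihood, TMM, condition as the only term, R 4.3.3) was fitted to all of these, with Benjamini-Hochberg adjustment. DESeq2 1.42.0 was an alternative. GC content, merged exon length and positions came from Gencode on GRCh38. Trends on GC and length (natural splines of 5 degrees of freedom) were removed as an offset in a separate fit. Real differences that run along GC content are removed by it too. Log2 CPM carry a prior count of 0.5. Intervals are at 95% and cover counting error only.

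The members and the lists were chosen with earlier results of these data known. Named genes were the 9 members, *RREB1*, the called genes of each list (up to 8), its 3 genes of highest mean RPKM, every protein-coding gene within 250 kb of *SYT11*, and the 5 genes of most similar log2 CPM. Some genes of the lists are not reported here. Promoter sequences came from RefSeq (GRCh38.p14). Libraries of a group differed by more than sampling noise and were counted separately.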

Additional observations from a re-analysis of the deposited data

How the results depend on the processing

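The log2 fold change of *SYT11* was 3.14 with the GC and length offset, 3.16 with the offset and the replicate block, and 2.76 to 2.99 with each library left out. Since the members were selected on this difference, these values describe its size and do not support it. The number of members past the thresholds was 1 with each library left out, and 2 at an adjusted p of 0.05, where *SYT5* was added. The count over all genes depended far more on the choice: 1647 with DESeq2, 1801 with a minimum of 1 read, 2032 at an adjusted p of 0.05, and 8 to 1117 with each library left out. Relatives called ran from 0 to 3 with libraries left out. Exocytosis genes called were 2 with DESeq2, a minimum of 1 read or filterByExpr, 3 at an adjusted p of 0.05, and 0 to 1 with libraries left out. Contact genes called were 7 with DESeq2 or a minimum of 1 read, 8 at an adjusted p of 0.05, and 0 to 5 with libraries left out. Neighbours called were 1 with DESeq2, a minimum of 1 read or an adjusted p of 0.05, and 0 to 1 with libraries left out. The cause of these changes was not tested. In the fits with a library left out, having fewer libraries cannot be told apart from which library was removed.

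Replicate numbers are shared between groups, but the correlations of same-numbered libraries' deviations were 0.50, 0.43 and −0.28, so the numbers were not taken to pair the libraries. With the replicate block 1684 genes were called in all, 2 exocytosis genes and 1 neighbour, and with the block and the offset 1193 genes and 2 contact genes. Depth limits *SYT4*, *SYT5* and *SYT7*, each with fewer than 40 reads in every library.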
